A study of Rattus norvegicus with 6 samples.

Results

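The cardiac myosin genes considered here were the 3 heavy chain genes Myh6, Myh7 and Myh7b, the 4 light chain genes Myl2, Myl3, Myl4 and Myl7, and Mylk3, the kinase of the regulatory light chain. These 8 genes were found on the array by the accession that each probe carries, and all 8 had at least 1 probe. They accounted for 10 of the 45598 probes on the array, and for 8 of the 16581 genes that could be named by accession. Myl2 and Mylk3 each had 2 probes, and the others had 1. Where a gene had 2, the probe with the higher mean signal over all arrays stood for the gene, and both are described.

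RNA came from neonatal rat ventricular cardiomyocytes (NRVCs), which are primary cells from the minced ventricles of Sprague-Dawley rats aged 1 to 2 days, 8 to 10 hearts pooled, with a preplating step and a serum-free culture medium according to the sample records. In all, 6 arrays were read, 3 from control cultures without C3a and 3 from cultures given recombinant C3a, the small fragment released when complement C3 is cleaved, at 0.5 µg/ml for 12 h. The methods add 1 h in 1% fetal bovine serum before stimulation. Both groups shared strain, age range, medium and isolation protocol, no genetic change was named, and the comparison asked whether C3a alters gene expression in these cells. The sources do not say whether the replicates came from separate isolations, so the spread between samples may be technical, and the number of arrays limits the precision.

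Myosin is the motor of the sarcomere, the contractile unit of muscle. Each motor joins a pair of heavy chains, which bind actin and split ATP, with essential and regulatory light chains that stiffen and tune the lever arm. In rodents the ventricle shifts around birth from the slow beta heavy chain, encoded by Myh7, to the fast alpha chain of Myh6, and a return towards Myh7 is a widely used sign of cardiac stress. Light chains mark the chambers, with Myl2 and Myl3 in the ventricle and Myl7 and Myl4 in the atrium and in the early ventricle.

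The 250 bases that lie before the start site are printed for the 2 pairs of genes whose difference separated the arrays by group, Myh6 with Myh7 and Myl3 with Myl4. The sequences are RefSeq's for the GRCr8 assembly, whose coordinates are given, and each is written 5′ to 3′ on the strand of its gene. Capitals mark the M-CAT motif CATTCC, bound by TEAD factors, the CArG box, bound by Srf, and the E-box CAGCTG, bound by helix-loop-helix factors. All motifs were sought on both strands, so that CATTCC may appear as its reverse complement, and none of the printed matches overlap. Myh6 and Myh7 lie on chromosome 15, Myl3 on chromosome 8 and Myl4 on chromosome 10.
Myh6, chr15:32411698-32411947, minus strand: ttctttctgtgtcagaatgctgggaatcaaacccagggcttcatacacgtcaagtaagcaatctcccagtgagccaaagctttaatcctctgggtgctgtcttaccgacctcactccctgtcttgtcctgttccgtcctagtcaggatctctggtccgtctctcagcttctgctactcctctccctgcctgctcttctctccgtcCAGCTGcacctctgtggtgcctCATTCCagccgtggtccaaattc
Myh7, chr15:32438195-32438444, minus strand: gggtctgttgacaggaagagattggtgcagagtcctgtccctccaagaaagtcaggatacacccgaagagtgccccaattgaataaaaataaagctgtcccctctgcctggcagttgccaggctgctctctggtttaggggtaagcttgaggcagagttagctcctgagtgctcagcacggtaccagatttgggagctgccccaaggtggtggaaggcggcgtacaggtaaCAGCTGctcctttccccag
Myl3, chr8:119616844-119617093, plus strand: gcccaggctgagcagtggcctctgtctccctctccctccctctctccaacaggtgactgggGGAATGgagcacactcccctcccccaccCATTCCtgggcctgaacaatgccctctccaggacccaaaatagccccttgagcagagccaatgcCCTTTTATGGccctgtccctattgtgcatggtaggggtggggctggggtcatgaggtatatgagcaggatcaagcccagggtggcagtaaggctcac
Myl4, chr10:89975900-89976149, plus strand: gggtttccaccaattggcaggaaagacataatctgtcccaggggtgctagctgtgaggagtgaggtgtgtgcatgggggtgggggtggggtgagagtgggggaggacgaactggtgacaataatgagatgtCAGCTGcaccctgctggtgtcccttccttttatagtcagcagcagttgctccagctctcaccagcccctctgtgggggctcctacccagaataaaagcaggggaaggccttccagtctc

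Windows of 300 bases, with 50 bases after the start, were searched for 7 of the 8 genes. M-CAT letters were found in those of Myh6, Myl3 and Mylk3, against 14.2% of all 33469 windows. The CArG box occurred in the Myl3 window alone of the 7, against 1.64% of all windows. CAGCTG was found for Myh6, Myh7 and Myl4, against 15.1%, and the GATA letters AGATAA were found for Mylk3, against 11.6%. These matches describe letters and not bound sites, and whether the annotated starts are those used in these cells was not tested. Of the factors named, Srf had a relative log2 signal of 4.78 ± 0.10 in the controls and 4.91 ± 0.059 with C3a (SD, n = 3), and Tead1 had −0.57 ± 0.025 and −0.54 ± 0.25, and neither passed the test.

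Each signal is given on the log2 scale after subtracting the 75th percentile of the probes on its own array, here called the relative log2 signal. All 10 myosin probes were well above background on all 6 arrays and no spot on any array was saturated. The 75th percentile itself lay between 207 and 367 intensity units and was highest on control replicate 2. The local background was 47 on control replicate 1 and 23 to 24 on the others, and 38.6% of probes were well above background there against 53.7% to 57.3% elsewhere. All arrays lay on 1 slide scanned once, with the controls along one side and C3a along the other, so slide side and treatment cannot be told apart.

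The cardiomyocyte origin was visible in all 8 cardiomyocyte markers, each kept for testing, and the brightest were the sarcomere genes Actc1, Tnnt2 and Tnnc1, at 9.97, 9.83 and 9.58 in the controls. The summed linear signal of the 8 markers was 3030 to 3754 in the controls and 3657 to 4117 with C3a, and 5 of 8 had a C3a mean above the control mean, with a median difference of 0.11. Fewer cells of a type and less RNA per cell cannot be told apart in such bulk samples. Fibroblast genes were present as well, with Col1a2, Col1a1 and Col3a1 at 5.72, 5.36 and 2.79 in the controls, and all 9 of their list were kept with a median difference of −0.038. The summed signal of the fibroblast list was 98.7 to 112 in the controls and 97.7 to 114 with C3a. The smooth muscle list was kept in full (6 genes, led by Tagln, Smtn and Acta2 at 4.70, 3.81 and 2.89 in the controls), with a median difference of 0.059 and sums of 47.4 to 55.2 and 51.8 to 54.3.

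Of the 6 endothelial markers 5 were kept, led by Vwf, Kdr and Pecam1 at 4.63, 3.70 and 0.73 in the controls, with a median difference of 0.14 and sums of 33.1 to 45.9 in the controls and 42.2 to 53.4 with C3a. Macrophage markers were dim, with 3 of 8 kept (Cd68, C1qb and Csf1r at −0.53, −2.63 and −3.79 in the controls), a median difference of 0.23, and sums of 0.80 to 1.11 and 0.87 to 0.97. Cd68 was well above background on all 6 arrays, C1qb and Csf1r on 5, and Cd163, C1qa and Mrc1 on none. Cd68 differed by −0.16, whereas C1qb and Csf1r, which were not detected on every array, differed by 0.23 and 0.41. Nothing is read from the macrophage median. Of the skeletal muscle markers 3 of 6 were kept (Acta1, Tnni2 and Myog at 5.60, −0.21 and −3.44), with a median difference of 0.10, while Myod1 and Tnnt3 were nowhere above background. Acta1, an actin that newborn heart muscle also makes, carried nearly all of their sum of 43.5 to 53.6 in the controls and 29.8 to 47.5 with C3a. The share of each cell type in the myosin signals was not tested.

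Myh6, the alpha heavy chain, was among the brightest probes of the array, ranking 5 or 6 of 45572 on each array. Its relative log2 signal was 10.24, 9.84 and 10.10 in control replicates 1 to 3, and 10.36, 10.17 and 10.31 in C3a replicates 1 to 3. Control replicate 2 lay lowest and C3a replicate 1 highest, and the groups overlapped because C3a replicate 2 lay below control replicate 1. The difference was 0.22 (SE 0.13, 95% interval −0.084 to 0.53), which did not pass limma (adjusted p = 0.745).

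Myh7, the beta heavy chain, followed the same order of arrays at the bottom and the top. Its relative log2 signal was 9.90, 9.52 and 9.77 in the controls and 9.97, 9.81 and 9.89 with C3a. Here too the groups overlapped, with control replicate 1 above 2 of the C3a arrays. The means were 9.73 ± 0.20 and 9.89 ± 0.077 (SD, n = 3), a difference of 0.16 (SE 0.12) that did not pass limma (adjusted p = 0.751).

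Myh7b encodes a further slow heavy chain, whose gene also hosts a muscle microRNA, and it was the one gene of the 8 whose C3a mean was lower. Its relative log2 signal was 2.69, 2.68 and 2.80 in the controls and 2.22, 2.92 and 2.53 with C3a. The controls lay close together whereas the C3a arrays spread on both sides of them, with SDs of 0.065 and 0.35. The difference of −0.16 (SE 0.17) did not pass limma (adjusted p = 0.788), and it was 0.0022 without C3a replicate 1.

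Myl2, the ventricular regulatory light chain, was measured by 2 probes of the same transcript. The brighter gave 9.45, 9.03 and 9.41 in the controls and 9.63, 9.43 and 9.53 with C3a, a difference of 0.24 (SE 0.14). The other gave 7.93, 7.50 and 7.80 in the controls and 8.01, 7.91 and 7.77 with C3a, a difference of 0.15 (SE 0.14). Both probes were lowest on control replicate 2 and overlapped between the groups, and neither passed limma (adjusted p = 0.745 and 0.761).

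Myl3, the ventricular essential light chain, was at 8.92, 8.44 and 8.82 in the controls and at 9.09, 8.91 and 8.87 with C3a. A pair of C3a arrays lay just below control replicate 1, and control replicate 2 was lowest. The difference was 0.23 (SE 0.15, 95% interval −0.12 to 0.58; limma adjusted p = 0.745).

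Its atrial counterpart Myl4, which is also made in the embryonic ventricle, was at 7.96, 7.52 and 7.79 in the controls and at 8.01, 7.82 and 7.76 with C3a. C3a replicate 3 was below 2 of the 3 controls. The difference was 0.11 (SE 0.14) and did not pass limma (adjusted p = 0.825), and without control replicate 2 it was −0.013.

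Myl7, the atrial regulatory light chain, had relative log2 signals of 5.65, 5.26 and 5.57 in the controls and 5.86, 5.67 and 5.57 with C3a. All 3 C3a arrays lay above their same-numbered control, the third by 0.0062 only. The difference of 0.21 (SE 0.14) did not pass limma (adjusted p = 0.745).

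Mylk3, which phosphorylates the regulatory light chain in heart muscle, was the one gene of the 8 in which all C3a arrays lay above all controls. Its brighter probe gave 7.52, 7.38 and 7.54 in the controls and 7.62, 7.56 and 7.65 with C3a, a difference of 0.13 (SE 0.094; limma adjusted p = 0.745). The other probe, which carries a different transcript accession, gave 5.25, 5.24 and 5.30 in the controls and 5.26, 5.17 and 5.19 with C3a. That difference was −0.060 (SE 0.087; limma adjusted p = 0.842), so the 2 probes of Mylk3 differed in sign.

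**Figure D1:**
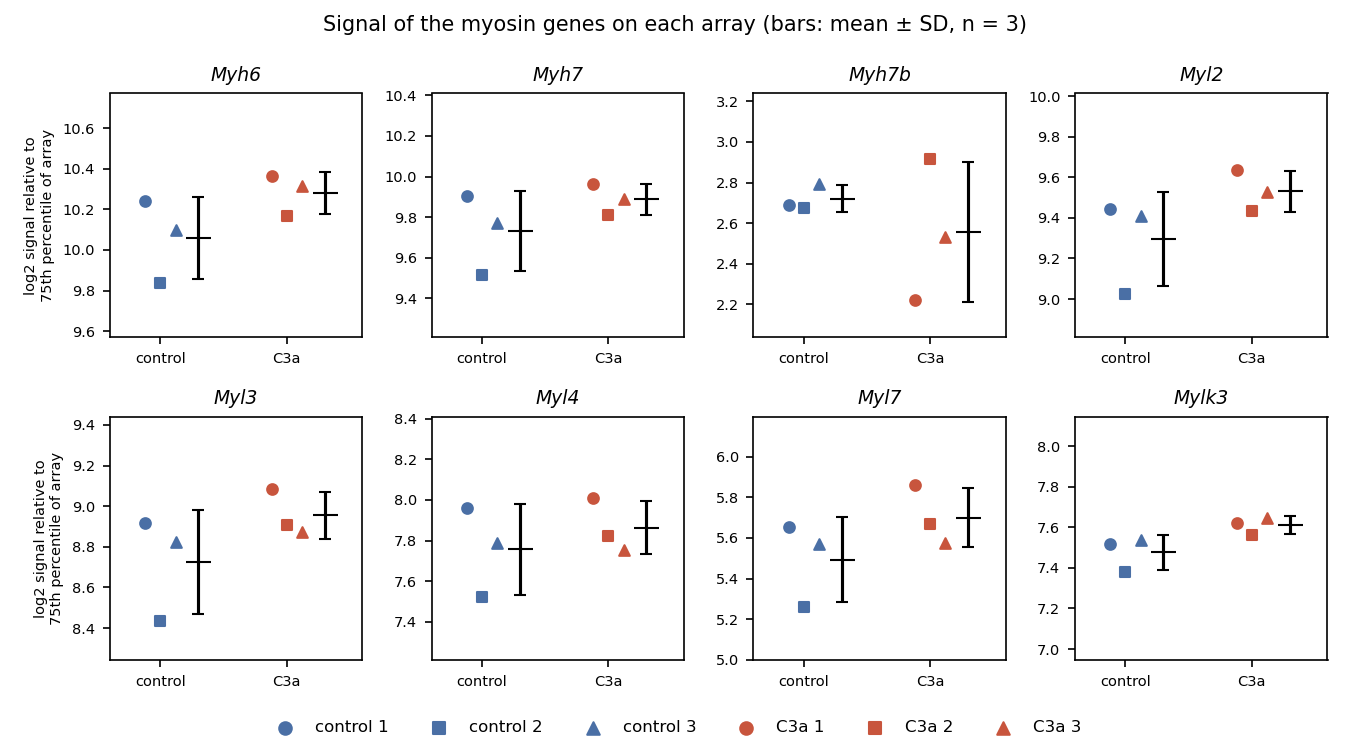
Relative log2 signal of the brighter probe of each of the 8 genes (y axis, log2 units above the 75th percentile; each panel spans 1.2 units) in control and C3a cultures, with the replicate shown by the symbol and the mean ± SD of 3 arrays as a bar. Control replicate 2 is the lowest point in all panels except that of Myh7b, and Mylk3 is the one panel in which the C3a points all lie above the controls.

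None of the 8 genes passed the adjusted threshold of 0.05 in limma, against 0% of the 23440 probes tested, of which the lowest reached an adjusted p of 0.704. Before adjustment, at p under 0.05, the count among the 8 genes was also 0, against 5.38% of the 10392 genes tested. The single gene with all C3a arrays above all controls, Mylk3, stood against 8.09% of genes, and no member had all C3a arrays below, against 4.89%. Exact permutation tests (two-sided, 3 against 3 arrays, smallest possible p = 0.1) gave p = 0.1 for Mylk3 and from 0.2 to 0.5 for the others. In 7 of the 8 genes the C3a mean was the higher, against 60.5% of all genes, and the median difference was 0.18 for the 8 genes and 0.036 for all genes. The 7 genes share the same arrays and moved together over them, so their common direction is not 7 independent observations.

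How strongly 7 of the genes moved together was seen in the deviation of each array from the mean of the gene over the 6 arrays. On control replicate 2 these 7 genes lay 0.17 to 0.41 below their own means, and all 7 were lowest there. Among all genes tested, 38.4% were lowest on that array. Of the 7 genes, 6 were highest on C3a replicate 1, as were 33.0% of all genes, and Mylk3 was highest on C3a replicate 3. Myh7b instead stood 0.41 below its mean on C3a replicate 1 and 0.28 above it on C3a replicate 2.

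Without scaling between arrays the order was another one. Control replicate 2 then lay 0.050 to 0.29 above the mean of each of the 7 genes, and C3a replicate 3 was the lowest array for all 7, by 0.23 to 0.43 below the mean. For Myh6 the intensities were 329660, 336188 and 295511 units in the controls and 303753, 330803 and 263585 units with C3a. The array with the lowest relative signal of Myh6 was therefore the one with its highest intensity and with the highest 75th percentile. Without control replicate 2, the difference of C3a from control was 0.11 for Myh6, 0.052 for Myh7, 0.10 for Myl2, 0.085 for Myl3, 0.089 for Myl7 and 0.085 for Mylk3. The part of the scaling in the common direction was not tested.

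**Figure D2:**
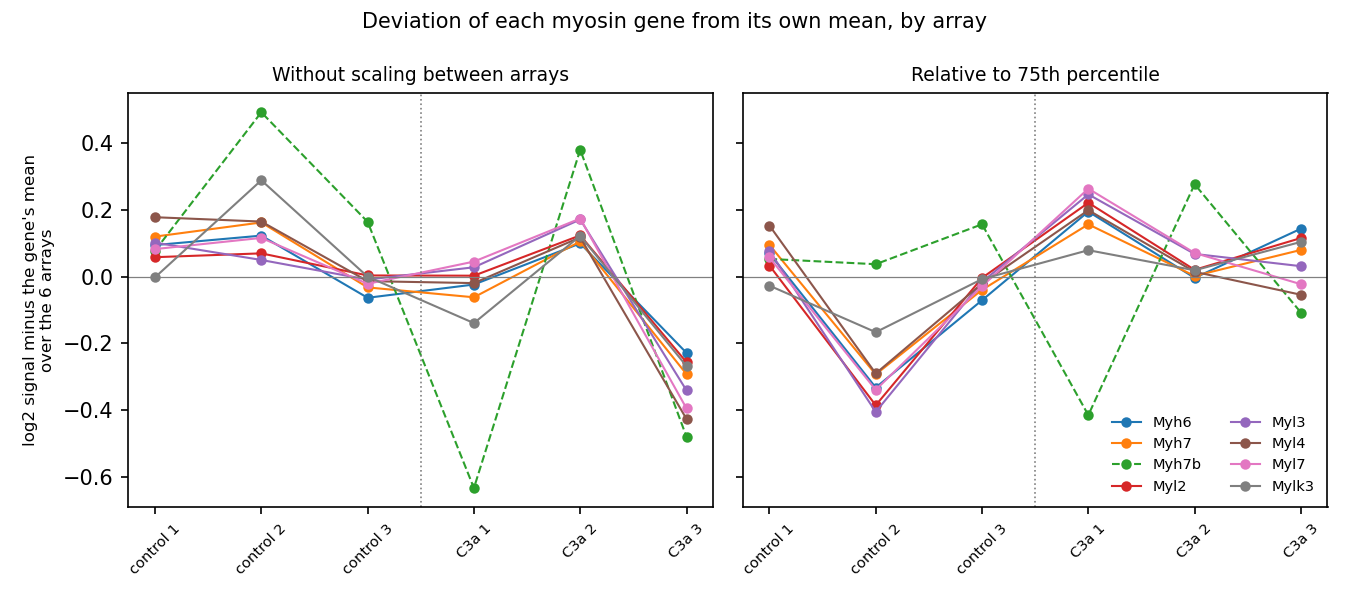
Deviation of the log2 signal of each gene from its own mean over the 6 arrays (y axis, log2 units) on each array (x axis), without scaling between arrays (left) and relative to the 75th percentile (right); the dashed line is Myh7b and the dotted line parts controls from C3a. On the right 7 genes dip together on control replicate 2, by 0.17 to 0.41, whereas on the left the same array lies above their means and C3a replicate 3 is lowest.

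The direction of single genes depended on how the arrays were scaled. Quantile normalization gave −0.020 for Myh6, −0.042 for Myh7, −0.081 for Myl4 and −0.044 for Mylk3, and it left Myl2, Myl3 and Myl7 above 0 at 0.034, 0.0070 and 0.095. That method gives each probe a value set by its rank on the array. Myh6 ranked 5 or 6 and Myh7 11 to 15 on each array, so both can take only few values there. With no normalization, or with scaling to the 7 E1A spike-in probes, the median of all probes itself shifted to −0.28 and −0.40, and all 8 genes were below 0. Both scalings shift every probe of an array alike, so that values relative to the median of all probes are the same as in the main scaling by construction, at 0.17 for Myh6, 0.19 for Myl2, 0.058 for Myl4 and −0.21 for Myh7b. Quantile normalization can move them, and there they were −0.042 for Myh6, 0.013 for Myl2, −0.10 for Myl4 and −0.22 for Myh7b. None of the 8 genes passed the adjusted threshold in limma under any of these scalings.

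**Figure D3:**
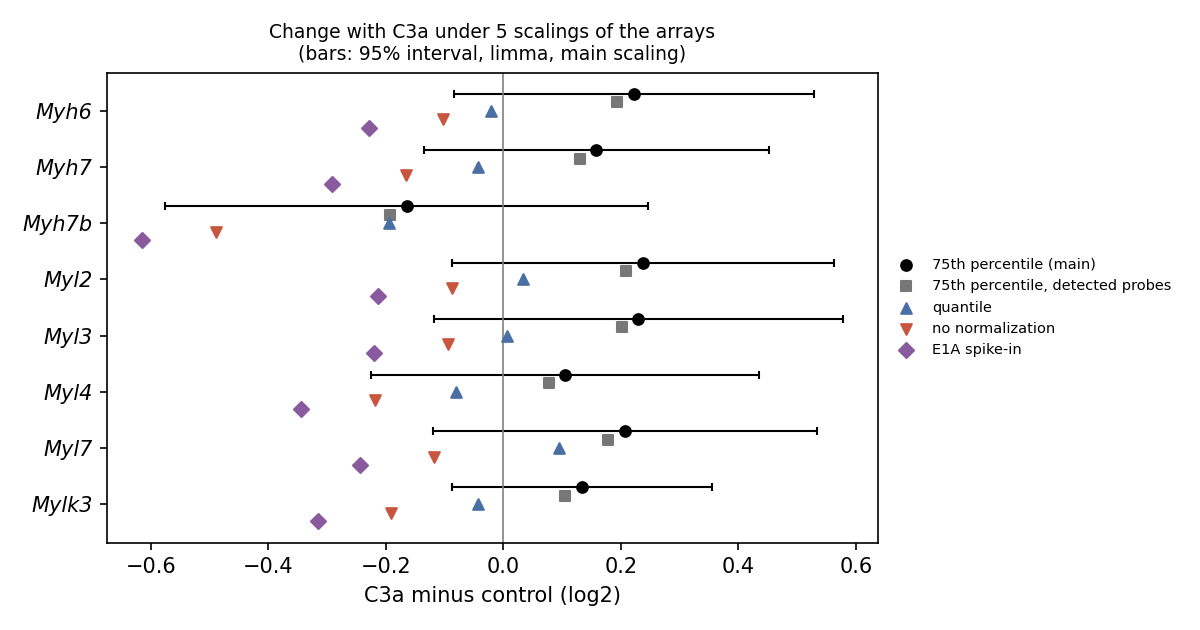
C3a minus control for each gene (x axis, log2 units) under 5 scalings of the arrays, with the 95% interval of the limma fit for the main scaling as a bar. Every interval spans 0, and Myh6, Myh7, Myl4 and Mylk3 change sign with quantile normalization, whereas with no normalization and with E1A spike-in scaling all 8 genes lie below 0.

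Differences between 2 probes on the same array do not depend on a factor that scales the whole array, and 3 such isoform differences were compared. Their size also holds the efficiency of the probes, so only their change between arrays is read. Ranks by brightness elsewhere likewise describe probe signals and not amounts of transcript. The alpha-to-beta heavy chain difference, Myh6 minus Myh7, was 0.34, 0.32 and 0.33 in the controls and 0.40, 0.36 and 0.43 with C3a. All C3a arrays lay above all controls, and each lay above the control of the same number, by 0.034 to 0.095. The means were 0.33 ± 0.0071 and 0.39 ± 0.035 (SD, n = 3), a change of 0.064 or 4.53% in the ratio of the signals (exact permutation test, two-sided, p = 0.1, the smallest that 3 against 3 arrays can give).

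Spots of the same probe give only a rough scale for a change of this size. The myosin probes had 1 spot on each array, while the brightest 333 to 335 of the probes with 8 or more spots had a median SD between spots of 0.034 to 0.040 on the log2 scale. That SD is for single spots, whereas the change compares group means of a difference between 2 probes. The SD of 0.0071 among the controls lay below the spot SD, so it may understate the spread. Under quantile normalization the change in Myh6 minus Myh7 was 0.022 and the groups overlapped. That scaling sets values by rank, and Myh6 ranked 5 or 6 and Myh7 11 to 15 on each array, so few values are possible. With another background correction, normexp on the median spot signal, the change was 0.066 without overlap, although the difference itself was 0.046 in the controls and 0.11 with C3a, far from the main values. Whether the probes for these 2 close relatives each bind their own transcript alone was not tested, because probe sequences were not used here.

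For the essential light chains, the atrial-minus-ventricular difference, Myl4 minus Myl3, was −0.95, −0.92 and −1.04 in the controls and −1.08, −1.08 and −1.12 with C3a. All C3a arrays lay below all controls, and each lay below the control of its own number. The means were −0.97 ± 0.061 and −1.09 ± 0.021 (SD, n = 3), a change of −0.12 or −8.25% in the ratio of the signals (exact permutation test, two-sided, p = 0.1, again the smallest possible). The groups remained apart under quantile normalization, where the change was −0.088, and under normexp, where it was −0.12.

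For the regulatory light chains, the atrial-minus-ventricular difference, Myl7 minus Myl2, was −3.79, −3.77 and −3.84 in the controls and −3.77, −3.77 and −3.95 with C3a. The groups overlapped, and C3a replicate 3 stood below the other arrays. The change was −0.030 (exact permutation test, two-sided, p = 0.9), and with the other probe of Myl2 it was 0.055 (exact permutation test, two-sided, p = 0.3). The regulatory pair thus showed no direction that both Myl2 probes shared. Taking the replicate numbers as 3 pairs, the exact sign-flip permutation p was 0.25 for Myh6 minus Myh7 and for Myl4 minus Myl3, the smallest that 3 pairs can give. Of the 3 differences, 2 did not overlap between the groups, against 14.3% of all pairs of genes tested on these arrays.

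**Figure D4:**
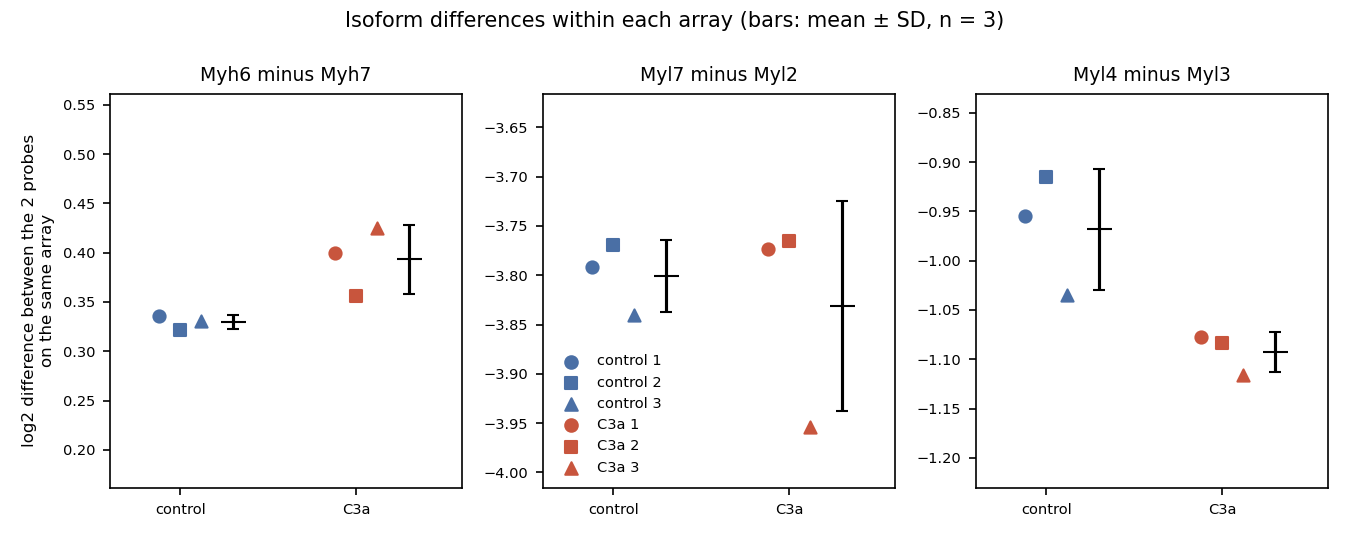
Difference of the log2 signals of 2 probes on the same array (y axis, log2 units; each panel spans 0.4 units and none starts at 0) for the heavy chains, the regulatory light chains and the essential light chains, by group, with the mean ± SD of 3 arrays as a bar. The C3a points lie above the controls for Myh6 minus Myh7, below them for Myl4 minus Myl3, and on both sides for Myl7 minus Myl2.

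Genes linked to myosin in 7 lists gave the setting for these values. Of 74 genes listed, 53 were kept for testing, none passed limma after adjustment, and 2 had an unadjusted p under 0.05, both higher with C3a, against 2.92% of all genes. Those were Mylk2, the skeletal muscle light chain kinase, with a difference of 0.30 (limma adjusted p = 0.745), and Kcnj2, a potassium channel of the ventricle, with 0.49 (limma adjusted p = 0.745). Both were dim, with relative signals of −2.40 and −2.89 in the controls, and were kept through the C3a arrays alone, the group in which they were higher, since neither was well above background on control replicate 1, and nothing is read from their count. Kcnj2 was chosen to be named after its value was seen.

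Among the other sarcomeric myosins 5 of 11 were kept. Only Myh8, the perinatal heavy chain of skeletal muscle, was bright, at 7.49 ± 0.16 in the controls and 7.58 ± 0.096 with C3a (SD, n = 3), a difference of 0.090. Like the cardiac chains it was lowest on control replicate 2. Its relatives Myl11 and Myh1 were at −2.53 and −2.91 in the controls. The heavy chain genes are close in sequence, and a share of cardiac transcript in the Myh8 signal was not tested.

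Thick filament partners of myosin had 5 of 12 genes kept, 3 of them with a lower C3a mean. Mybpc3, the cardiac myosin-binding protein C, was at 7.34, 7.39 and 7.20 in the controls and 7.12, 7.34 and 6.76 with C3a, a difference of −0.24 (limma adjusted p = 0.745). The M-band genes Myom2 and Myom1 differed by −0.21 and −0.11, and Smyd1, a methyltransferase needed for myofibril assembly, by 0.15. Mybpc3, Myom2 and Myom1 were lowest on C3a replicate 3 and highest on control replicate 2.

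Non-muscle and smooth muscle myosins, of which 9 of 10 genes were kept, had a median difference of −0.030. Their brightest genes, the light chains Myl12a, Myl9 and Myl12b and the heavy chain Myh9, differed by 0.058, −0.064, 0.11 and 0.12. In the phosphatase and light chain regulators 9 of 10 were kept with a median of 0.036. There Calm3 and Calm2, which encode calmodulin, an activator of the light chain kinases, differed by 0.10 and −0.20, and Ppp1cb, the catalytic subunit of myosin phosphatase, by −0.0061.

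Regulators known for the switch between alpha and beta chains had 12 of 16 genes kept, 9 with a higher and 3 with a lower C3a mean, and a median difference of 0.039. Thra, the thyroid hormone receptor that drives Myh6, was at 5.48 ± 0.12 in the controls and 5.58 ± 0.054 with C3a (SD, n = 3). Srf, Mef2d and Nkx2-5, transcription factors of heart muscle, differed by 0.12, 0.016 and 0.15. All 4 overlapped between the groups.

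Chamber identity genes were described as a companion to the light chains. Of the atrial list, 7 of 9 were kept, 5 with a higher C3a mean, and the median difference was 0.13. Nppa, which encodes atrial natriuretic peptide, differed by −0.092, Pam, which processes peptides in atrial granules, by −0.0022, Sln, a calcium pump regulator, by 0.20 and Gja5, a connexin, by 0.23. Gja5 was one of 4 of the 53 related genes in which all C3a arrays lay above all controls, with Mylk2, Smyd1 and Kcnj2, against 8.09% of all genes, and Myl11, Calm2 and Rxra were the 3 in which all lay below, against 4.89%. Of the 53 genes, 7 were not well above background on all 6 arrays. Among these 7 were Mylk2, Kcnj2 and Myl11, each well above background on 5 arrays and so kept through a single group. For Mylk2 and Kcnj2 that group was C3a. Nothing is read from these counts. The summed linear signal of the 7 kept atrial genes was 135 to 149 in the controls and 126 to 148 with C3a. The atrial cardiomyocyte marker list holds 6 of these 9 genes, without Nppa, Pam and Kcnj3, and thus without both genes whose C3a mean was lower. Kcna5 and Bmp10 were nowhere above background. The other 4 all had a higher C3a mean, and their summed linear signal was 12.1 to 14.0 in the controls and 14.4 to 15.6 with C3a. The part of atrial cells in the light chain values was not tested. Of the ventricular list all 6 were kept with a median of 0.049, and Pln, Lbh, Irx4 and Fhl2 differed by 0.11, −0.054, −0.013 and −0.46. The remaining genes of that list, Kcnj2 and Hey2, differed by 0.49 and 0.47 and were well above background on only 5 arrays. Nothing is read from that median.

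The profiles of Myh6, Myh7, Myl2 and Myl7 over the 6 arrays were shared with many other genes. With Pearson's r over the 6 arrays, 876 of 8557 other genes had r above 0.9 with Myh6, and the 3 most alike were Apoc3, Ocln and Pde4d (r = 0.996, 0.995 and 0.994), while Myh7 came 24th (r = 0.986) and Myh7b had r = −0.51. For Myh7 there were 1020 such genes, led by Sapcd1. For Myl2 there were 1112, led by Ifna4, Atp5mc1 and Hcar2, and for Myl7 1199, led by Cox17, Pfdn1 and Gpi. All of these points share the same 6 arrays and the same 75th percentile on each.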

How the data were processed

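The authors deposited the spot intensity of 6 one-colour Agilent arrays, written by Agilent Feature Extraction 11.5.1.1 per the processing notes, with the background subtracted but no normalization between arrays. They also deposited a log2 table, which was found to hold log2 intensity minus the 75th percentile of each array, without centring, and was used as an alternative. Control spots (4259 of 62976) and outlier spots were left out, spots of a probe were averaged, and the 75th percentile over probes was subtracted. Kept were 23440 probes that stood well above background in every array of either group. The controls met this for 17521 probes and C3a for 23427, so probes kept through 1 group came mostly through C3a. Shares given for all genes rest on this uneven pool. Of 45598 probes, 21109 (46.3%) were named by accession through RefSeq's GRCr8 table, so further probes of a gene may be unnamed here. C3a and control were compared with limma 3.58.1 in R 4.3.3, two-sided, with Benjamini-Hochberg adjustment over all kept probes. The limma step was tested on simulated data. Exact permutation tests used scipy 1.17.1 and figures matplotlib 3.10.9. The members and lists were chosen with earlier results of these data known. Named genes were the members, the 4 brightest kept genes of each related list, the 3 brightest of each marker list, and the 3 genes most correlated with each of 4 members, plus those said to be chosen otherwise. Of the genes this rule names, 3 are not reported here. Deviations from the group mean correlated at 0.28, 0.32 and 0.31 for arrays with the same replicate number and at −0.26 to −0.093 for others. The numbers were therefore taken as pairs in the sign-flip test and in the replicate block alternative. The main limma fit and the permutation tests of 3 against 3 arrays were unpaired and do not account for this dependence. Alternatives covered scaling, background, dim-probe filter, variance trend, block, test, probe choice and arrays left out. Array weights were chosen after seeing the data.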

Additional observations from a re-analysis of the deposited data

How the results depend on the processing

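For the 8 genes, 132 of 152 alternative values kept the direction of the main value, 20 reversed and none passed the adjusted threshold in limma (adjusted p from 0.380 to 0.999). Of the 20 reversals, 14 were under no normalization or E1A scaling, which shift all probes of an array alike, with the median of all probes at −0.28 and −0.40. Quantile normalization reversed Myh6 (−0.020), Myh7 (−0.042), Myl4 (−0.081) and Mylk3 (−0.044). With no normalization the values were −0.10 for Myh6, −0.17 for Myh7, −0.087 for Myl2, −0.095 for Myl3, −0.22 for Myl4, −0.12 for Myl7 and −0.19 for Mylk3. E1A spike-in scaling gave −0.23, −0.29, −0.21, −0.22, −0.34, −0.24 and −0.32 for the same genes in that order. Leaving out 1 array reversed Myl4 (−0.013 without control replicate 2, otherwise up to 0.21) and Myh7b (0.0022 without C3a replicate 1, otherwise down to −0.34). The changes of Myh6 minus Myh7 and of Myl4 minus Myl3 kept their sign under quantile normalization and normexp, the alternatives that could reverse it. They were 0.048 to 0.083 and −0.16 to −0.098 when 1 array was left out. That cannot change their sign, because the groups did not overlap, so only the size is read. The other 6 alternatives return the same difference by construction. Myl7 minus Myl2 reversed to 0.061 with quantile normalization and to 0.012 with the mean over the probes of a gene, and ranged from −0.063 to 0.031 when 1 array was left out.

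Over all probes 0 passed the adjusted threshold in limma, and 786 were higher and 587 lower at an unadjusted p under 0.05, with 439 to 1262 higher and 275 to 882 lower when 1 array was left out (the lowest without C3a replicate 3, the highest without control replicate 3, and 294 lower without C3a replicate 1). The replicate block gave 1816 higher and 1371 lower and changed no call of the 8 genes. No normalization gave 41 higher and 2557 lower, 4 of them lower after adjustment, and E1A scaling gave 9 higher and 1725 lower, of which 1 and 15 passed adjustment. Requiring detection on all 6 arrays gave 367 higher, no filter gave 357 higher, normexp gave 356 lower and the methods' t-test gave 363 lower and 0 after adjustment. The causes of these shifts were not tested. On control replicate 1, which had the higher background, 38.6% of probes were well above background, the lowest share of the arrays. The filter was met by 17521 probes in the controls and by 23427 in C3a. The part of the higher background in this, or in the signal of any probe, was not tested.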
